A study of Mus musculus with 10 samples.

Results

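Muscle-enriched ubiquitin ligase genes were followed in C2C12 cells, a mouse myoblast line that fuses into myotubes when serum is lowered, after depletion of the ubiquitin ligase Huwe1 or overexpression of the deubiquitinase USP10. The 9 genes were Fbxo32, Trim63, Trim54, Trim55, Trim72, Fbxo40, Asb2, Asb5 and Klhl31, taken by name from tables that listed 23417 genes for each Huwe1 comparison and 23431 genes for the USP10 comparison. All 9 were found in each of the 4 tables. Messenger RNA from 10 libraries had been sequenced. At day 0 (growth medium) and day 6 (differentiation medium) a wild type library was compared with a pair of libraries that carried different shRNAs against Huwe1. At day 8 a library labelled as carrying a non-targeting RNA was compared with a pair of Huwe1 shRNA libraries made from myotubes. By the labels, the hairpins of day 8 were other than those of days 0 and 6. The methods of the study name the same pair of targeting sequences for myoblasts and myotubes, so labels and methods differ on this. By the methods of the study, shRNAs came from lentiviruses, and infected myoblasts were selected with puromycin before differentiation. The day 8 cells were infected only once myotubes had formed, and were then also selected with puromycin. At day 6, cells with a USP10 cDNA under the EF1a promoter were represented by 1 library. Control wild type cells at days 0 and 6 carried no labelled construct, so infection and selection cannot be told apart from lowered Huwe1 there. The control of the USP10 cells is named as wild type too, so carrying a construct cannot be told apart from raised USP10.

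Each table held 1 FPKM value per condition. FPKM is a fragment count scaled to transcript length and to the number of fragments mapped. Both shRNA libraries were pooled in 1 value. There were therefore no replicate values, no spread between replicates and no test. Differences are given as the log2 ratio of treated over control after adding 0.01 FPKM to both, a gene was counted only if it reached 1 FPKM in either column, and a gene was called lower or higher when its ratio passed 2-fold. Counts of the 9 genes and of the lists are set beside the share of all genes past the same limit. The tables had been normalized separately, so a comparison of levels between tables describes the columns and tests nothing.

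Ubiquitin ligases choose the proteins that the proteasome destroys. In skeletal muscle a small set of ligases is made almost only in differentiated fibers. Trim63 (MuRF1) and Fbxo32 (atrogin-1) are the ligases best known from wasting muscle and are called atrogenes, since their transcripts are induced by fasting, disuse and glucocorticoids through FoxO factors. Trim63, Trim54 and Trim55 form the MuRF family of RING ligases that bind the sarcomere and microtubules. Trim72 (MG53) patches torn muscle membrane. The other members are substrate adaptors of cullin ligases: F-box proteins join Cul1 through Skp1, Asb proteins join Cul5 through elongins, and BTB-kelch proteins such as Klhl31 join Cul3.

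Promoter windows were available from RefSeq (GRCm38.p6) for 7 of the 9 genes, covering 250 bases before and 50 bases after the start site, and in all 7 the start was that of the gene in the deposited tables. Windows for Fbxo32 and Trim55 were not used here. The windows were searched on both strands for the E-box (CANNTG), which myogenic bHLH factors bind, the FOXO site TGTTTAC, the TATA box TATAAA, the MEF2 site and the CArG box of serum response factor. The windows printed are those of Trim63 as a best known atrogene, Fbxo40 as the gene with the lowest ratio, Asb2 and Asb5 as the pair whose ratios had opposite signs at days 6 and 8, and Klhl31 as a gene without any match. Capitals mark matches.
Trim63, chr4:134314870-134315169, strand plus: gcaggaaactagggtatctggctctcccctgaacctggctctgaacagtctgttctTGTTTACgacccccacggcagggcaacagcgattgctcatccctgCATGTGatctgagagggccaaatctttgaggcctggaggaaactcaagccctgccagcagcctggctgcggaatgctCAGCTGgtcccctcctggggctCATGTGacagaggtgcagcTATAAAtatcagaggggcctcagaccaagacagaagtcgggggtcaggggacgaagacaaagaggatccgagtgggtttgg
Fbxo40, chr16:36979087-36979386, strand minus: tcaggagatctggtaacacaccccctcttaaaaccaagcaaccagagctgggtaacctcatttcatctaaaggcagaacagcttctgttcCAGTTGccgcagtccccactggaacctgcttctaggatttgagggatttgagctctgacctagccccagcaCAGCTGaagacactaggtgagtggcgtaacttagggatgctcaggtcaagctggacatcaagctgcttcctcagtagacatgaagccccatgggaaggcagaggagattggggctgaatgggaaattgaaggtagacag
Asb2, chr12:103355952-103356251, strand minus: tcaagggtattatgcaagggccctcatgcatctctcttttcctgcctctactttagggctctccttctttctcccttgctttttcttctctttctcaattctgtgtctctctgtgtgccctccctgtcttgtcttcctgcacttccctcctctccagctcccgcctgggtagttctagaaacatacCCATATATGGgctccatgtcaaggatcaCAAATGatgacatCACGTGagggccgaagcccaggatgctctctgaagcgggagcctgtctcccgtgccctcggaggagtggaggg
Asb5, chr8:54550081-54550380, strand plus: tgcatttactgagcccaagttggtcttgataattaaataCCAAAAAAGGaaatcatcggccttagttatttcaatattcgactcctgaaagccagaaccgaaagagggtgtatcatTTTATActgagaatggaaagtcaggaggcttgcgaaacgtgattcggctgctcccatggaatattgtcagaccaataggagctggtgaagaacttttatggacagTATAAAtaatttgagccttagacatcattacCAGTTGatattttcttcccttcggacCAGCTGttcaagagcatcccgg
Klhl31, chr9:77636482-77636781, strand plus: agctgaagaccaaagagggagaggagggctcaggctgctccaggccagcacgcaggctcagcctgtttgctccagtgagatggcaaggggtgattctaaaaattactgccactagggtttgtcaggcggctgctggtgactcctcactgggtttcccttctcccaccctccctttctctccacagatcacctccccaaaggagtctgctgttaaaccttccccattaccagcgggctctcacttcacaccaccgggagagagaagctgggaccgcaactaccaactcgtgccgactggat

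The Trim63 window held 3 E-boxes, 1 FOXO site that began 194 bases before the start, and 1 TATA box that began 31 bases before it. An E-box was present in 6 of the 7 windows and in 72.3% of all 32851 windows in the table. The E-box form CAGCTG was present in 4 of the 7 windows (Trim63, Trim54, Fbxo40 and Asb5), and in 16.3% of all windows. The FOXO site occurred in Trim63 alone among the 7, beside 3.65% of all windows. TATA boxes were present in Trim63 and Asb5, beside 13.6% of all windows. CArG boxes were present in Asb2 and Asb5, beside 1.63% of all windows, and the MEF2 site was in none of the 7, beside 0.557% of all windows. These are matches of letters in a short window and not measured binding.

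The samples were first checked against their labels. Huwe1 was at 38.3 FPKM in control and 15.2 FPKM in knockdown cells at day 0, 35.1 and 21.9 FPKM at day 6, and 55.4 and 33.0 FPKM at day 8. Usp10 was at 10.3 FPKM in the control of the USP10 table and at 38.3 FPKM with the USP10 cDNA, but it was also higher in the day 6 knockdown, at 35.4 FPKM against 13.2 FPKM. Muscle markers (Myod1, Myf5, Myog, Des, Ckm, Tnnt3 and Actc1) reached 1 FPKM for 3 of 7 genes in both day 0 columns and for 7 of 7 in the other 6 columns. Their summed level ranged from 381 to 9056 FPKM in controls and from 193 to 1884 FPKM in treated columns. Fibroblast markers (Col1a1, Dcn, Pdgfra and Lum) summed to between 13.6 and 148 FPKM in controls and to between 82.1 and 3138 FPKM in treated columns, where Dcn alone reached 2987 FPKM in the day 6 knockdown and 3037 FPKM with USP10. The part of these markers in the results was not tested. Adipocyte markers summed to between 0.116 and 0.535 FPKM in controls and between 0.471 and 4.68 FPKM in treated columns, with Adipoq listed at 0 in every column. Leukocyte markers summed to between 0.807 and 4.70 FPKM in controls and between 1.38 and 2.40 FPKM in treated columns, and Ptprc did not pass 0.0102 FPKM. Endothelial markers summed to between 0.0134 and 13.5 FPKM in controls and between 0.0277 and 11.2 FPKM in treated columns, where Pecam1 did not pass 0.346 FPKM and Cdh5 gave the rest. Smooth muscle markers, mostly Acta2, summed to between 431 and 1149 FPKM in controls and between 551 and 1010 FPKM in treated columns. Whether the share of cells that had differentiated differed was not measured, and in bulk RNA fewer cells of a type and less RNA per cell cannot be told apart.

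In control cells, most of the ligase genes were nearly silent in myoblasts and abundant in myotubes. At day 0 only Asb5 (177 FPKM), Trim55 (11.4 FPKM) and Fbxo32 (4.11 FPKM) passed 1 FPKM, and Trim63 and Fbxo40 were listed at 0. At day 6 all 9 were between 9.76 FPKM (Asb2) and 777 FPKM (Asb5), and at day 8 between 7.14 FPKM (Asb2) and 637 FPKM (Asb5). Asb5 was the most abundant member in all 8 columns and made up from 57.9% to 96.1% of the summed FPKM of the 9 genes. Without Asb5, control and knockdown summed to 565 and 109 FPKM at day 6 and to 433 and 211 FPKM at day 8, and the USP10 table's columns to 232 and 73.8 FPKM.

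**Figure D1:**
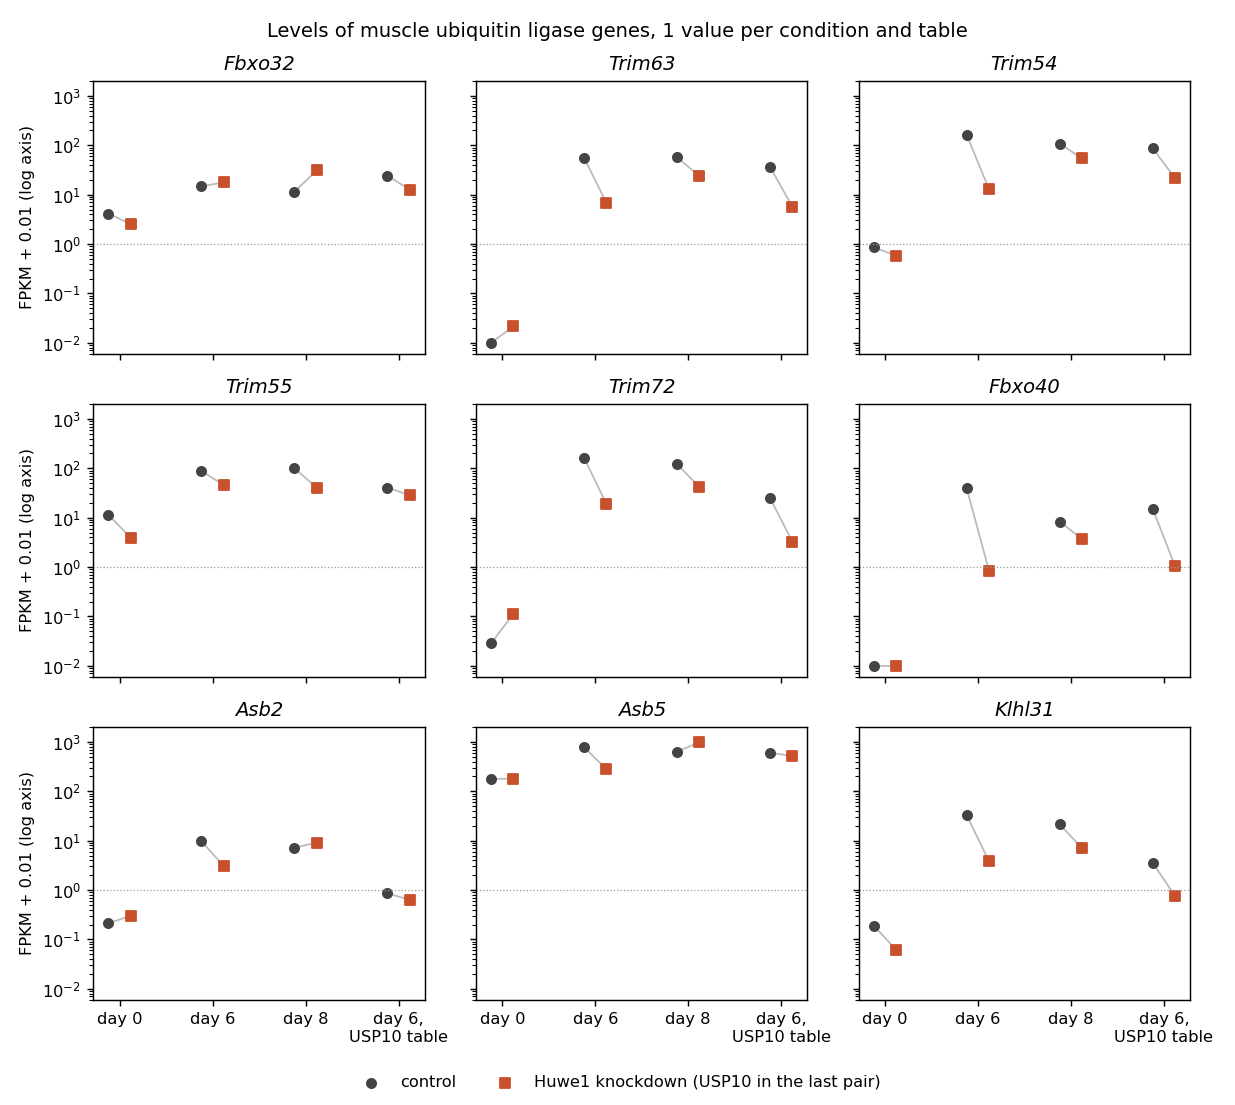
FPKM of each of the 9 genes, plus 0.01, on a log axis for day 0, day 6, day 8 and the USP10 table, 1 value per condition: black circles are controls, red squares are Huwe1 knockdown or, in the last pair, USP10 overexpression. Fbxo40 drops from 39.1 to 0.823 FPKM at day 6, whereas Fbxo32 is higher in the knockdown at day 8 (30.9 against 11.5 FPKM), and the dotted line marks 1 FPKM.

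Among the MuRF genes, Trim63 was lower in the treated column of all 3 differentiated comparisons. Trim63, which binds titin at the M-band and marks myosin for degradation, lies at chr4:134315120-134329629 (mm10). Controls held 55.7 FPKM at day 6, 56.9 FPKM at day 8 and 36.3 FPKM in the USP10 table, against treated levels of 6.78, 23.7 and 5.69 FPKM. All 3 treated values lay below all 3 control values. The log2 ratios were -3.04 at day 6 (8.22-fold lower), -1.27 at day 8 (2.41-fold lower) and -2.67 with USP10 (6.39-fold lower). At day 0 it was listed at 0 in the control and at 0.0115 FPKM in the knockdown, and no fold is given.

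Trim54 (MuRF3), which associates with microtubules and the Z-disc, had the lowest ratio of this family at day 6. It lies at chr5:31116612-31137626. Control levels were 0.850 FPKM at day 0, 162 FPKM at day 6, 108 FPKM at day 8 and 86.7 FPKM in the USP10 table, and treated levels were 0.572, 12.8, 54.2 and 21.6 FPKM in the same order. The treated value was the lower one in each pair. The log2 ratio was -3.67 at day 6 (12.7-fold lower) and -2.01 with USP10 (4.02-fold lower), whereas at day 8 the ratio of -0.99 (1.99-fold lower) stopped just short of 2-fold.

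Trim55 (MuRF2) was the MuRF gene that myoblasts already expressed, and it was the 1 member past 2-fold at day 0. It lies at chr3:19644460-19691599. The control values were 11.4, 88.6 and 99.5 FPKM at days 0, 6 and 8 and 40.8 FPKM in the USP10 table. The treated values were 3.85, 45.5, 40.6 and 28.3 FPKM. Its day 0 ratio of -1.56 (2.95-fold lower) was matched or exceeded on the low side by 0.432% of the genes counted, and its day 8 ratio was -1.29 (2.45-fold lower). At day 6 the ratio of -0.96 (1.95-fold lower) and with USP10 the ratio of -0.53 (1.44-fold lower) were within 2-fold, so that Trim55 had the ratio nearest to 0 of the MuRF genes in both day 6 tables.

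Trim72 (MG53), a tripartite motif ligase of the muscle membrane that also acts on the insulin receptor substrate, behaved like Trim63 within the tables. It lies at chr7:128004378-128011393. Controls held 162 FPKM at day 6, 121 FPKM at day 8 and 24.7 FPKM in the USP10 table, and treated columns held 18.9, 42.0 and 3.26 FPKM. The log2 ratios were -3.11 (8.62-fold lower), -1.52 (2.88-fold lower) and -2.92 (7.58-fold lower). The USP10 control of 24.7 FPKM was below the day 8 knockdown value of 42.0 FPKM, so that for Trim72 controls and treated columns overlapped across tables. At day 0 both values were far under 1 FPKM, at 0.0184 and 0.103 FPKM.

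The F-box adaptors went apart. Fbxo32 (atrogin-1), which carries MyoD and the translation factor eIF3f to the SCF complex, lies at chr15:58175879-58214892. Its control levels were 4.11 FPKM at day 0, 14.7 FPKM at day 6, 11.5 FPKM at day 8 and 24.2 FPKM in the USP10 table. Its treated levels were 2.52, 17.8, 30.9 and 12.6 FPKM. It was thus the single member that was higher in a knockdown by more than 2-fold, at day 8, with a log2 ratio of 1.42 (2.68-fold higher), and 95.8% of the genes counted had a ratio as low or lower. At day 6 the ratio was 0.28, at day 0 it was -0.70, and with USP10 it was -0.95 (1.93-fold lower). The pair best known as atrogenes therefore did not move together: at day 8 Fbxo32 was higher and Trim63 lower in the same knockdown column.

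Fbxo40, an F-box protein that takes insulin receptor substrate 1 to degradation, had the lowest ratios of the 9 at day 6 in both tables. It lies at chr16:36966073-36979136. It was listed at 0 in both day 0 columns. Controls were at 39.1 FPKM at day 6, 8.30 FPKM at day 8 and 15.2 FPKM in the USP10 table, and treated columns were at 0.823, 3.67 and 1.04 FPKM. None of these treated values reached any of these control values. The log2 ratio was -5.55 at day 6 (47.5-fold lower), -1.18 at day 8 (2.26-fold lower) and -3.86 with USP10 (14.6-fold lower). At day 6 only 0.838% of the genes counted were as low or lower. Its control level differed 4.71-fold between day 6 and day 8, the widest gap among the 9 between these controls.

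The SOCS-box adaptors Asb2 and Asb5 were lower in the knockdown at day 6 and above control, but within 2-fold, at day 8. Asb2, which directs filamins and desmin to degradation during myogenesis, lies at chr12:103321142-103356001. Its levels were low, with 0.202 FPKM in control and 0.292 FPKM in knockdown cells at day 0, 9.76 and 3.02 FPKM at day 6, 7.14 and 9.15 FPKM at day 8, and 0.846 and 0.622 FPKM in the USP10 table. The log2 ratio was -1.69 at day 6 (3.23-fold lower) and 0.36 at day 8. Against the control of the USP10 table, centred on the median gene, the day 6 knockdown ratio was 1.77. In the USP10 table both values were under 1 FPKM, about 18.0 fragments in the control by an estimate of depth from the files, so Asb2 was not counted there.

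Asb5, a SOCS-box protein enriched in muscle whose substrates are less well known, lies at chr8:54550331-54587836. It was at 177 and 181 FPKM at day 0, 777 and 281 FPKM at day 6, 637 and 981 FPKM at day 8, and 604 and 518 FPKM in the USP10 table, with the control first in each pair. Its ratio passed 2-fold in the day 6 knockdown only, at -1.47 (2.77-fold lower). At day 8 it was 0.62 (1.54-fold higher), at day 0 it was 0.03 and with USP10 -0.22. The day 8 knockdown held the highest level of any member in any column.

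Klhl31, a BTB-kelch adaptor of Cul3 needed for skeletal muscle integrity, lies at chr9:77636732-77660122. Controls were at 0.180, 32.4 and 21.3 FPKM at days 0, 6 and 8 and at 3.53 FPKM in the USP10 table. Treated columns were at 0.0518, 3.81, 7.04 and 0.750 FPKM. The treated value was lower in every pair. The log2 ratio was -3.09 at day 6 (8.51-fold lower), -1.60 at day 8 (3.03-fold lower), the lowest of the 9 at that time, and -2.22 with USP10 (4.71-fold lower). The 3.53 FPKM of the USP10 table's control was, however, below the 3.81 FPKM of the day 6 knockdown.

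Counted together, 3 of the 9 genes passed 1 FPKM at day 0, and 1 of these (Trim55) was lower and 0 were higher by 2-fold, beside 1.69% lower and 1.90% higher of 10874 genes. At day 6 all 9 were counted, 7 were lower and 0 higher, beside 13.4% lower and 17.6% higher of 11695 genes. The median log2 ratio of the 9 was -3.04, and that of all genes -0.01. Of the 9, 5 (Trim63, Trim54, Trim72, Fbxo40 and Klhl31) were at least 8-fold lower, beside 3.25% of all genes. At day 8 all 9 were counted, 5 were lower (Trim63, Trim55, Trim72, Fbxo40 and Klhl31) and 1 was higher (Fbxo32), beside 10.0% lower and 7.89% higher of 11755 genes, with a median of -1.18 for the 9 and 0.00 for all genes. With USP10, 8 were counted, 5 were lower (Trim63, Trim54, Trim72, Fbxo40 and Klhl31) and 0 higher, beside 10.0% lower and 9.70% higher of 11482 genes, with medians of -2.11 and 0.05. One of the 8 (Fbxo40) was at least 8-fold lower with USP10, beside 2.57% of all genes.

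**Figure D2:**
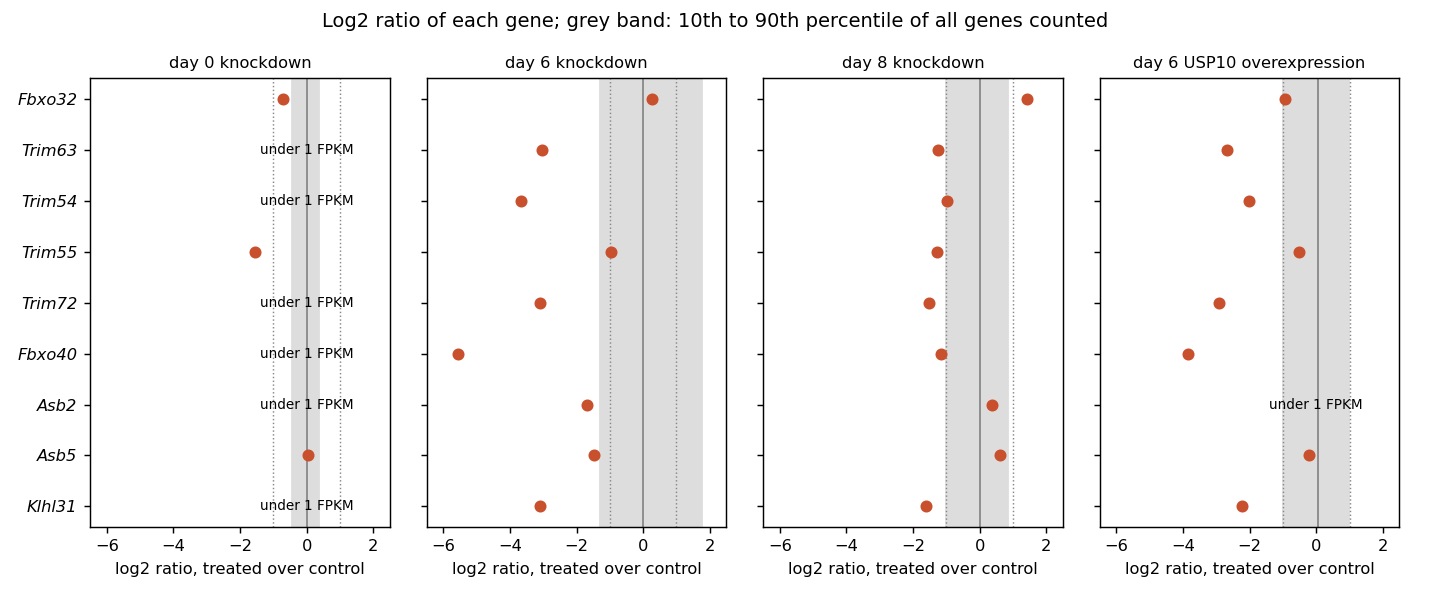
Log2 ratio of treated over control for each gene in the 4 comparisons (red points), with the 10th to 90th percentile of all genes counted in grey, the median gene as a solid line and 2-fold as dotted lines. At day 6 the lowest point is Fbxo40 at -5.55, at day 8 the points lie between -1.60 and 1.42, and genes under 1 FPKM in both columns are named as such.

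Within their own tables, the lowest ratio was -5.55 at day 6 and -1.60 at day 8, and the medians were -3.04 and -1.18. The order of the medians depended on the day 6 control, since against the control of the USP10 table the day 6 median was -0.50 with 4 genes lower, beside 5 lower at day 8. Huwe1 had been lowered before differentiation in the day 6 cells and in formed myotubes in the day 8 cells. Controls, days and, by the labels, hairpins also differed, so that these causes cannot be told apart. Levels in the day 8 knockdown were above those of the day 6 knockdown for 8 of the 9 genes, from 1.74-fold (Fbxo32) to 4.46-fold (Fbxo40), and for Trim55 they were 45.5 FPKM at day 6 and 40.6 FPKM at day 8. In controls, 7 of the 9 had a lower level at day 8 than at day 6 by 1.22-fold (Asb5) to 4.71-fold (Fbxo40), and Trim63 and Trim55 were 1.02-fold and 1.12-fold higher.

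The tables held a pair of day 6 control columns. The headers of both name the same wild type day 6 reads, and the labels give 1 wild type day 6 library, yet the values were no rescaling of each other. From which reads the USP10 table's control was computed is not known and was not tested, so their difference may not be one between cultures. The 4 fibroblast markers summed to 111 FPKM in the USP10 table's control and to 13.6 FPKM in the knockdown table's control, which had the higher estimated depth. Of the genes, 19.9% of 11459 differed by at least 2-fold after the columns were centred on the median gene, and the robust SD of their log2 difference was 0.63. Of the 9 ligase genes, 8 were higher in the control of the knockdown table, and 5 by at least 2-fold, beside 7.61% of all genes. These were Asb2 (9.76 against 0.846 FPKM, 11.5-fold), Klhl31 (32.4 against 3.53 FPKM, 9.17-fold), Trim72 (162 against 24.7 FPKM, 6.57-fold), Fbxo40 (39.1 against 15.2 FPKM, 2.58-fold) and Trim55 (88.6 against 40.8 FPKM, 2.17-fold). The folds in brackets were taken before centring, whereas the counts were made after it. Fbxo32 went the other way, at 14.7 against 24.2 FPKM. The differentiation genes Myog (619 against 305 FPKM) and Ckm (219 against 78.1 FPKM) were also higher in the knockdown table's control, and their part in these differences was not tested. The estimated depth of the columns was about 32800000 and 8600000 fragments.

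Each day 6 comparison was therefore repeated against the control of the other table, centred on the median gene. For the Huwe1 knockdown, 4 of the 9 (Trim63, Trim54, Fbxo40 and Asb5) were at least 2-fold lower against either control, beside 7.86% of all genes. Their log2 ratios against the other control were -2.48, -2.82, -4.24 and -1.16. Trim72 was then at -0.45 and Klhl31 at 0.051, so the low day 6 values of these genes depended on which control was used, and Asb2 was 1.77 higher on the log2 scale. Against that other control 4 of the 9 were lower, beside 10.6% of all genes, and 1 was higher, beside 12.1%. For USP10, 5 of the 9 (Trim63, Trim54, Trim72, Fbxo40 and Klhl31) were at least 2-fold lower against both controls, beside 8.49% of all genes, with ratios against the other control from -2.90 (Trim54) to -5.62 (Trim72). Asb2 and Trim55 joined them against that control alone, giving 7 of 9 beside 15.3% of all genes.

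**Figure D3:**
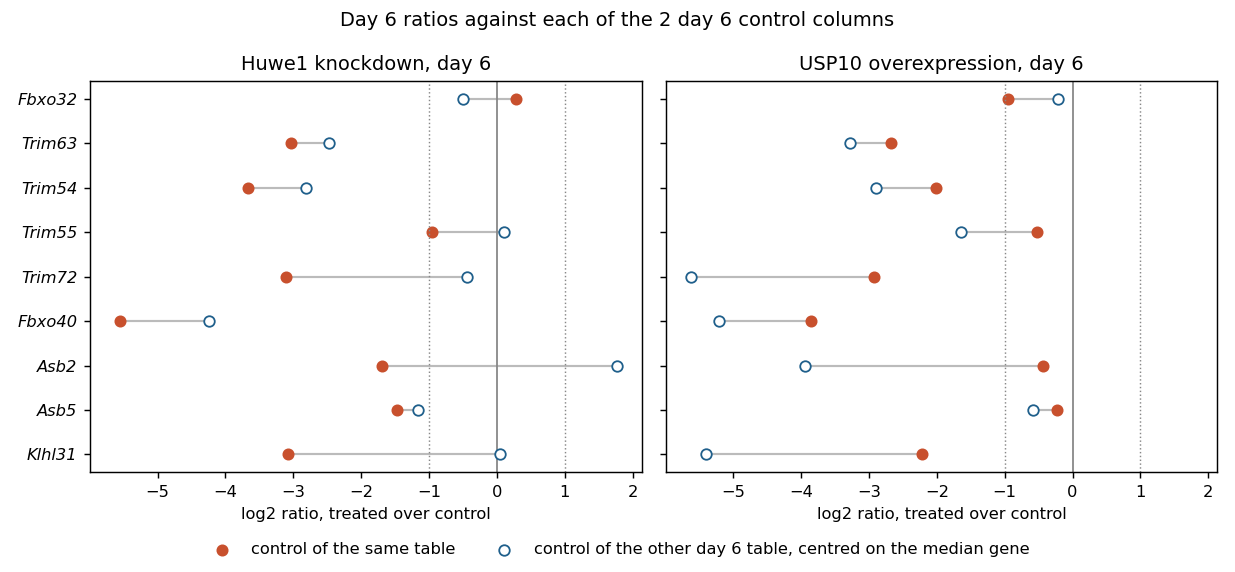
Log2 ratio at day 6 against the control of the same table (red) and against the control of the other day 6 table after centring on the median gene (open circles), for Huwe1 knockdown (left) and USP10 overexpression (right), with dotted lines at 2-fold. Trim63 and Fbxo40 stay left of the line in both panels, whereas Klhl31 in the knockdown moves from -3.09 to 0.051.

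Genes with related roles were then described by lists that do not hold the 9 members. Lists and gene families were set only against the control of their own table. How far their day 6 counts depend on that control was not tested. Of 17 other adaptors enriched in muscle, 10 were counted in the day 6 knockdown, 9 were at least 2-fold lower and 0 higher, beside 13.4% lower and 17.6% higher of all genes, with a median log2 ratio of -3.20. At day 8, 6 of 9 were lower and 0 higher (median -1.82), beside 10.0% and 7.89% of all genes. With USP10 6 of 7 were lower and 0 higher (median -2.49), beside 10.0% and 9.70% of all genes, while at day 0 the 2 that were counted stayed within 2-fold. Klhl41, which stabilizes sarcomere proteins, went from 494 FPKM to 48.4 FPKM between control and day 6 knockdown, and was at 382 and 106 FPKM at day 8, and at 356 and 17.9 FPKM in the USP10 table. Klhl40, a nemaline myopathy gene that protects nebulin, was at 70.7 and 8.57 FPKM at day 6 and at 35.7 and 5.74 FPKM with USP10, but at 55.3 and 66.2 FPKM at day 8. Klhl30 was at 46.6 and 5.98 FPKM at day 8, a log2 ratio of -2.96, and Asb8 stayed within 2-fold in all 4 comparisons, with 30.7 and 18.1 FPKM at day 6. Kbtbd12, a further kelch adaptor chosen after its values were seen, had the lowest ratio of the list at day 6, with 9.82 and 0.0693 FPKM. Low values in the treated columns were thus also found for muscle adaptors beside the 9 genes.

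The 20 ligases that take part in muscle wasting but are made in most tissues gave another picture. At day 6, 2 were lower and 1 higher by 2-fold, and with USP10 again 2 were lower and 1 higher, with medians of 0.01 and 0.08. None of the 19 counted was past 2-fold at day 0 or at day 8 in either direction. Siah1a, a RING ligase, was at 26.8 and 8.40 FPKM at day 6 and at 23.7 and 6.39 FPKM with USP10. Smurf1, a HECT ligase of BMP signaling, was at 10.3 and 34.5 FPKM at day 6 and at 13.2 and 39.5 FPKM with USP10. The other lower gene in both day 6 comparisons, named after its values were seen, was the mitophagy ligase gene Park2, at 2.05 and 0.244 FPKM in the knockdown table and 1.33 and 0.329 FPKM in the USP10 table. The share that was lower, 10% of the 20 in both, lay near the 13.4% and 10.0% of all genes. The 1 higher gene in each stands beside 17.6% and 9.70% of all genes.

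Among cullins and the machinery that ligases share, counts past 2-fold lay near or under those of all genes. Of 18 such genes, 2 were lower at day 6 (median -0.32), 2 at day 8 (median -0.38), 1 with USP10 (median -0.06) and 0 at day 0, beside 13.4%, 10.0%, 10.0% and 1.69% of all genes, and 0 were higher in any comparison. Most ratios were below 0, in 14 of 18 at day 6 and 16 of 18 at day 8, with those past 2-fold included. The genes past 2-fold included Cand2, a muscle form of the cullin exchange factor, which was at 38.9 and 4.81 FPKM at day 6, 27.9 and 12.6 FPKM at day 8 and 18.5 and 3.46 FPKM with USP10. The other gene past 2-fold at day 8 was Ube2d1, a ubiquitin-conjugating enzyme, at 147 and 64.8 FPKM. Cul1, the scaffold for Fbxo32 and Fbxo40, was at 104 and 51.1 FPKM at day 6 (log2 ratio -1.02) and at 84.7 and 43.9 FPKM with USP10 (-0.95). Among 15 autophagy and lysosome genes, which are induced beside the ligases in wasting muscle, 2 were lower and 0 higher at day 6, 1 was lower and 2 were higher at day 8, 1 was lower and 1 higher with USP10, and 0 passed 2-fold at day 0. The 2 of 15 lower at day 6 are 13.3%, beside 13.4% of all genes, and the 1 of 15 lower at day 8 and with USP10 is 6.67%, beside 10.0% in both. Of all genes, 1.90% were higher at day 0, 17.6% at day 6, 7.89% at day 8 and 9.70% with USP10. The pair that was higher at day 8 consisted of Gabarapl1 (25.8 and 55.8 FPKM) and Sqstm1 (426 and 896 FPKM), which serve autophagosome formation and cargo capture. Within 2-fold, both were also above control at day 6 (log2 ratios 0.89 and 0.58) and with USP10 (0.80 and 0.98). Gabarap was the gene higher with USP10, at 214 and 568 FPKM. Tfeb, a transcription factor for lysosome genes that was partly named after its values were seen, was the gene lower in all 3 differentiated comparisons, at 8.41 and 3.55 FPKM at day 6, 11.7 and 5.63 FPKM at day 8 and 5.55 and 2.60 FPKM with USP10. The second gene lower at day 6 was Map1lc3a, at 249 and 124 FPKM.

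Of 16 regulators that act upstream of the ligase genes, 15 were counted after differentiation, and 4 were lower and 0 higher at day 6, 1 was lower and 1 higher at day 8, 3 were lower and 0 higher with USP10, and 0 of 13 passed 2-fold at day 0. The lower ones were 26.7% at day 6, 6.67% at day 8 and 20% with USP10, beside 13.4%, 10.0% and 10.0% of all genes. The 1 higher at day 8 stands beside 7.89% of all genes. Myog, a myogenic bHLH factor that also activates Fbxo32 and Trim63 in denervated muscle, was at 619 and 27.1 FPKM at day 6, 392 and 148 FPKM at day 8 and 305 and 28.8 FPKM with USP10. Junb was at 74.2 and 11.7 FPKM at day 6 and 39.1 and 10.9 FPKM with USP10, but at 61.5 and 97.4 FPKM at day 8. Akt2, a kinase that restrains FoxO factors, was at 154 and 52.8 FPKM at day 6. Klf15, a target of the glucocorticoid receptor named after its values were seen, was the regulator that was higher at day 8, at 0.0727 and 1.06 FPKM, and was lower at day 6, at 1.14 and 0.276 FPKM, and with USP10, at 2.68 and 0.960 FPKM, all low levels. The glucocorticoid receptor gene Nr3c1 stayed within 2-fold, at 18.7 and 29.7 FPKM at day 6 and 17.5 and 28.4 FPKM at day 8.

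Transcripts of proteins that the 9 ligases are known to bind or to target were then counted. Of 19, 10 were lower and 3 higher at day 6 (median -1.30), 9 lower and 0 higher at day 8 (median -0.63), 8 lower and 0 higher with USP10 (median -0.55), and 1 of 13 (Myod1, 21.7 and 9.30 FPKM) was lower and 0 higher at day 0. The lower ones were 52.6%, 47.4%, 42.1% and 7.69% of those counted, beside 13.4%, 10.0%, 10.0% and 1.69% of all genes, and the 3 higher at day 6 stand beside 17.6% of all genes. The Z-disc protein Actn2 was at 278 and 4.30 FPKM at day 6 and at 80.4 and 1.23 FPKM with USP10. Mylpf, a fast myosin light chain, was at 4641 and 861 FPKM at day 8. Those higher at day 6 included, named after their values were seen, Flna, a filamin gene whose protein is an Asb2 target, at 23.5 and 135 FPKM, and the LIM protein gene Fhl2, at 6.58 and 39.5 FPKM.

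**Figure D4:**
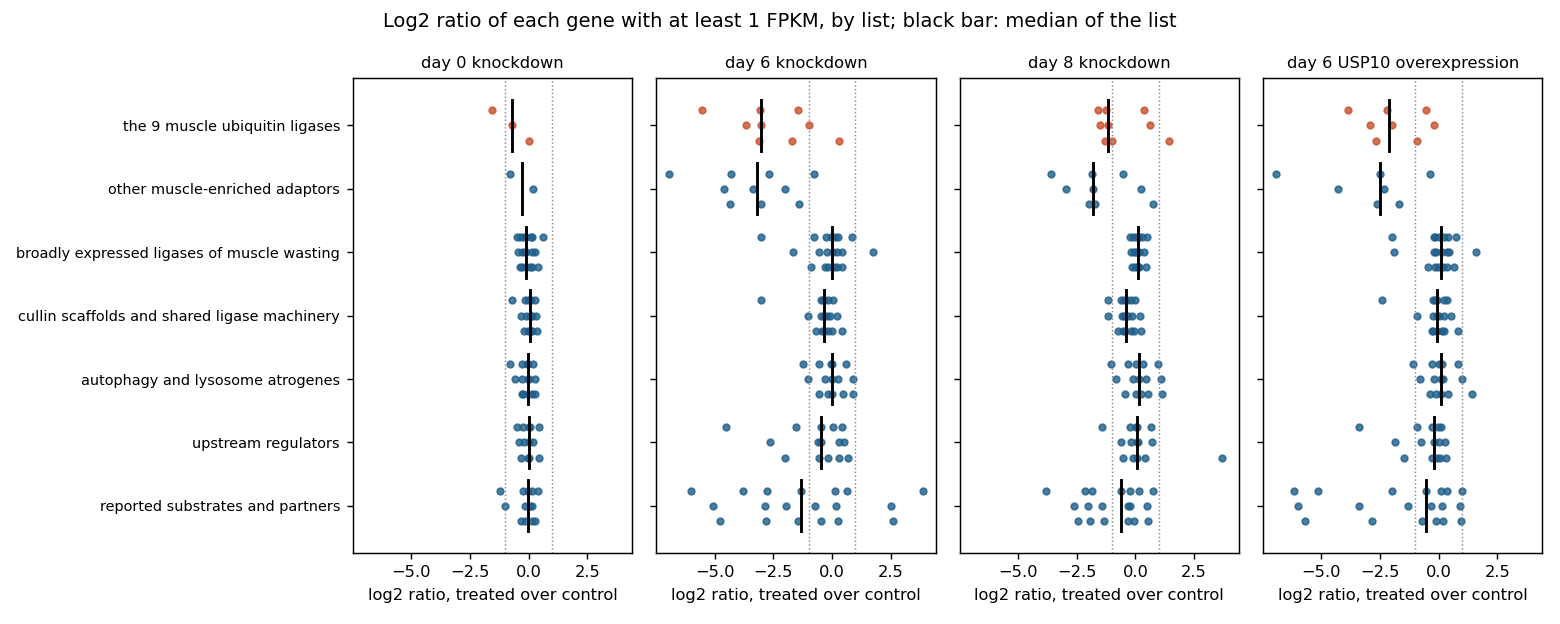
Log2 ratio of every gene with at least 1 FPKM in either column, for the 9 ligase genes (red) and the 6 lists (blue), in the 4 comparisons, with a black bar at the median of each list and dotted lines at 2-fold. The ligase genes and the other muscle-enriched adaptors lie mostly left of the line at day 6 (medians -3.04 and -3.20), whereas broadly expressed ligases center near 0 (median 0.01).

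Across the 8 columns the ligase genes followed similar profiles. Pearson r between log2 levels of pairs of members ran from 0.69 to 0.99 (36 pairs, median 0.90). Without the day 0 columns, over the other 6, r ran from -0.40 to 0.99 (median 0.67), and every pair with Fbxo32 was between -0.40 (Trim55) and 0.30 (Asb5), while Trim72 and Klhl31 stayed at 0.99. The columns share treatments and tables, so these are descriptions. Of 8362 other genes with at least 10 FPKM in 1 column, those most like the mean profile of the 9 were Porcn, Ppfia4, Filip1, Ube2h and Cav3, with r from 0.995 to 0.996. Ube2h, a ubiquitin-conjugating enzyme, varied far less than the ligases, from 21.0 to 51.5 FPKM. For Trim63 alone the nearest included the giant sarcomere gene Neb (r = 0.997) and the kinase gene Camk2a (r = 0.995). For Fbxo32 they were others: Ezh1 (0.981), Itgb5 (0.980) and Cd59a (0.977). Each of these was higher in the day 8 knockdown, as with Itgb5 at 44.8 and 94.7 FPKM. Since they were chosen by r over columns that include this pair, that is no separate result.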

How the data were processed

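Mouse C2C12 RNA-seq tables were used for Huwe1 knockdown at days 0, 6 and 8 and for USP10 overexpression at day 6. Per the study's methods, poly(A) RNA was turned into libraries with the ScriptSeq v2 kit (directional per the labels), sequenced on an Illumina instrument and mapped with Tophat, and the authors ran Cuffdiff, whose deposited FPKM values (1 per gene and condition, shRNA libraries pooled) were used here. The submitters' processing notes name Bowtie2, Cuffdiff and mm10. Versions and the annotation are not given in the sources used here. The authors' columns of fold change, test statistic, p-value, q-value and significance were not used.

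Ratios were log2((treated + 0.01)/(control + 0.01)), for genes that reached 1 FPKM in either of the columns, and genes past 2-fold were called. With 1 value per condition no test, SD or interval can be computed. The 9 genes, the 6 lists and the marker lists were chosen with earlier results of these data known. Named in each comparison were all members, Huwe1 and Usp10, and up to 4 genes of a list with at least 10 FPKM and the largest ratios. Some genes that these rules select are not reported here. The genes nearest in profile had the highest Pearson r of log2(FPKM + 0.01) over the 8 columns. Ckm, Myog in the control comparison and the CAGCTG form of the E-box were added to these rules.

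Depth is not in the files. It was estimated from the FPKM that 1 fragment gives on genes with 1 transcript, at about 8600000 to 32800000 fragments for the 4 control columns and the USP10 column, and not for pooled columns. One fragment on 2000 bases is then worth 0.0169 to 0.0653 FPKM. Levels under 1 FPKM can rest on few fragments, depending on transcript length and depth. Asb2 at 0.846 FPKM in the USP10 table's control was about 18.0 fragments, and Klhl31 at 0.750 FPKM with USP10 was about 144. The day 8 control is labelled as non-targeting, but the file header names it wild type. Coordinates are those of the deposited tables, counted from 1. Counting of calls was tested on simulated data, where 200 of 200 changed genes among 11695 (day 6 knockdown) had the right direction. The changes were planted past 2-fold and without noise, so this checks the counting and not how reliable a call is. Scripts ran in Python 3.11.15 with pandas 2.3.3 and numpy 2.4.6, and figures were drawn with matplotlib 3.10.9. Alternatives were other pseudocounts and minimum levels, centring, completed Cuffdiff fits only, and the other day 6 control.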

Additional observations from a re-analysis of the deposited data

Results flagged for a closer look

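Asb2 and Asb5 had opposite signs in the knockdowns of day 6 and day 8. The log2 ratio of Asb2 was -1.69 at day 6 and 0.36 at day 8, a difference of 2.05, and that of Asb5 was -1.47 at day 6 and 0.62 at day 8, a difference of 2.09. Each ratio rests on 1 control value and 1 value pooled over a pair of shRNA libraries, so the difference was not tested. Asb2 was 11.5-fold higher in the control of the knockdown table than in the other day 6 control, and against that other control its day 6 ratio was 1.77. For Asb5 the day 6 ratio was -1.16 against the other control, the same direction as in its own table.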

How the results depend on the processing

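Of 90 recomputed summary values (counts of genes past 2-fold and median ratios), 82 stayed within the limits set for them, a factor of 1.5 for counts and the robust SD between the day 6 controls, 0.63, for medians. With no minimum level at day 0, where most members lie under 1 FPKM, 2 of 9 were lower, 2 were higher and the median was 0. With at least 1 FPKM required in both columns, the median at day 6 was -2.36, as Fbxo40 was then not counted. With the control of the other day 6 table, the knockdown gave 4 lower, 1 higher and a median of -0.50, and the USP10 median was -3.28. For a single gene, other minimum levels and completed fits could not change the ratio, since they alter only which genes are counted. The number of single-gene ratios that stayed was therefore partly fixed in advance. Of 216 recomputed ratios of single genes, 200 stayed within 0.63 and 14 moved further (11 of these with the other control, and 3 with a pseudocount of 1). The other 2, which were past 2-fold, changed sign, both with the other control in the day 6 knockdown: Asb2 to 1.77 and Klhl31 to 0.051. Among those that moved, Trim55 (-0.96 to 0.10) and Fbxo32 (0.28 to -0.50) also changed sign there, from ratios within 2-fold. The cause was not tested. No paired analysis was possible because each table pools its shRNA libraries in 1 column, and leaving out a replicate was not possible for the same reason. Depth limits the genes under 1 FPKM, foremost at day 0 and Asb2 in the USP10 table.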

Other observations

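The wider families of the 9 genes did not share one direction. Of other Trim genes, 30 were counted at day 6, and 0 were lower and 9 higher by 2-fold, beside 13.4% lower and 17.6% higher of all genes, with a median log2 ratio of 0.38. At day 8, 1 of 31 was lower and 8 were higher (median 0.41), beside 10.0% and 7.89% of all genes, and with USP10 0 of 29 were lower and 2 higher (median 0.35), beside 10.0% and 9.70%. The higher ones included Trim24, at 5.17 and 12.1 FPKM, and Trim3, at 7.29 and 17.0 FPKM, at day 6, and Trim11, at 9.30 and 24.1 FPKM, and Trim41, at 11.2 and 22.5 FPKM, at day 8. At day 0, 0 of 28 passed 2-fold in either direction.

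Of other Fbxo genes, 2 of 25 were lower and 1 higher at day 6, 2 of 27 lower and 2 higher at day 8, and 5 of 27 lower and 0 higher with USP10, with medians of 0.09, 0.08 and -0.06. The lower ones were 8% at day 6, 7.41% at day 8 and 18.5% with USP10, beside 13.4%, 10.0% and 10.0% of all genes. Of other Klhl genes, 7 of 25 were lower and 3 higher at day 6 (median -0.32), among the higher Klhl13 at 4.85 and 19.4 FPKM. At day 8, 3 of 26 were lower and 2 higher (median 0.04), and with USP10 4 of 24 were lower and 1 higher (median -0.22). The lower Klhl genes were 28% at day 6, 11.5% at day 8 and 16.7% with USP10, beside the same shares of all genes. Of other Asb genes, 4 of 9 were lower and 0 higher at day 6 (median -0.76), 2 of 8 were lower and 0 higher at day 8 (median -0.14), and 1 of 7 was lower and 0 higher with USP10 (median -0.23). The lower Asb genes were 44.4%, 25% and 14.3% of those counted, again beside 13.4%, 10.0% and 10.0% of all genes. Counts of higher genes in these families stand beside 17.6% of all genes at day 6, 7.89% at day 8 and 9.70% with USP10. The Klhl and Asb families include genes of the list of muscle-enriched adaptors.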
